A study of Mus musculus with 2 samples.

Results

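Mir126a, Mir221 and Mir222 are miRNA genes known from blood vessels, and all 3 were found by symbol among the 1973 genes of the count tables. A miRNA gene is transcribed as a hairpin, from which a short mature RNA is cut that pairs with target mRNAs through its seed, bases 2 to 8. The tissue was stomach of mouse embryos at 16.5 days of gestation, strain B6NCrl, with both sexes pooled and no treatment. It was sampled as 1 group of 2 biological replicates, and the design held no other tissue, age or treatment to compare it with. Both libraries carry the same donor label, so that the pools are separate rests on the biological replicate numbers alone, and each SD and each difference between libraries may be technical. The pool of replicate 2 came from 41 embryos, and the labels give no number for replicate 1. RNA of at most 30 nucleotides by the size label was sequenced, and the tables count reads per hairpin gene, so reads of the 5′ and 3′ arms of a hairpin are added up.

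Mir126a is the classic endothelial miRNA gene. It is made together with its host Egfl7, a protein secreted by endothelial cells, and its product represses Spred1 and Pik3r2, which restrain signalling from vascular endothelial growth factor. Mir221 and Mir222 form a small cluster whose products repress the receptor Kit and the cell cycle inhibitor Cdkn1b, and they are known from endothelium, vascular smooth muscle and many proliferating cells. Kit also marks the pacemaker cells of gut muscle, the interstitial cells of Cajal. In whole tissue, fewer cells of a type and less RNA per cell cannot be told apart.

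The mature sequences are shown first because they separate the members into unlike seeds (RefSeq, GRCm38.p6, the assembly that mm10 names). They run 5′ to 3′, with the seed in capitals.
miR-126a-3p: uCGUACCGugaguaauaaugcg
miR-221-3p: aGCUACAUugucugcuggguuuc
miR-222-3p: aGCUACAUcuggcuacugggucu
miR-221-5p: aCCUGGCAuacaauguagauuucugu
The products miR-221-3p and miR-222-3p have the same seed and the same 8 bases at the 5′ end, and 11 of their 23 positions are identical when aligned without gaps. The only other mature miRNA with this seed among the 1738 in the RefSeq table is miR-1928. Its gene, Mir1928, had no sense read in either library, which allows a level of at most 0.388 CPM (counts per 1000000 sense-assigned reads) in replicate 1 and at most 0.376 CPM in replicate 2. The seed of miR-126a-3p occurs in no other of these 1738 sequences, and the longest stretch it shares with miR-221-3p is 3 bases. Among the genes of that table with this seed, Mir221 and Mir222 were thus the ones with counted reads. These reads are of whole hairpins, so none is assigned to a seed. The RefSeq table has no entry for the 5′ arms of Mir126a and Mir222, so these arms are not shown here or in the hairpins.

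The hairpins show where the mature arms lie, with the arms listed above in capitals.
Mir126a: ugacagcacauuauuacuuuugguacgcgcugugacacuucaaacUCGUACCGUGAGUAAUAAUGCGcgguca
Mir221: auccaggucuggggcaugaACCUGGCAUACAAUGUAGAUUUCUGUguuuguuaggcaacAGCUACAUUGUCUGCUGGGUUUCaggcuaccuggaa
Mir222: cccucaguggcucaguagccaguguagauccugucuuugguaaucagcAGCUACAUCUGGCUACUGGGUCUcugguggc
Mir126a (ENSMUSG00000065540.1) lies at chr2:26591357-26591429 on the plus strand of GRCm38. It falls in introns of 8 annotated Egfl7 transcripts and in an exon of 1, and an intron of 1 transcript of Gm20532, which overlaps Egfl7, also spans it. Mir221 (ENSMUSG00000065422.1) lies at chrX:19146294-19146388 and Mir222 (ENSMUSG00000065471.1) at chrX:19146893-19146971, both on the minus strand. A gap of 504 bases separates them, and no annotated transcript of another gene overlaps either. The hairpins are 73, 95 and 79 bases long, with a GC content of 45.2%, 47.4% and 54.4% in the order Mir126a, Mir221 and Mir222. Their predicted folding energies were -31.2, -42.8 and -40.7 kcal/mol. Apart from the overlapping antisense gene Mir126b, no stretch of more than 13 bases is shared with any of 2201 other annotated hairpins on either strand. No near-identical copy of a member is thus found among the annotated hairpins, and copies elsewhere in the genome were not searched.

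The count tables hold 7734578 sense-assigned reads in replicate 1 and 7983714 in replicate 2. These are 49.1% and 50.0% of all reads, while 25.1% and 25.2% were placed in several positions and are counted for no gene. A sense read was seen for 751 genes. Epithelial markers were present, with the miR-200 genes at 50986 ± 145 CPM together (SD, n = 2) and Mir375, an endocrine and gastric epithelial miRNA gene, at 11125 ± 1179 CPM. These levels do not identify the tissue as stomach, which rests on the label. Intervals cover counting error only, since the sources used here name no molecular identifiers.

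Mir126a was among the most abundant miRNA genes of the tissue by counted reads. It had 224523 sense reads in replicate 1 and 231921 in replicate 2. These were 29028 CPM (exact Clopper-Pearson 95% interval 28910 to 29147) and 29049 CPM (28933 to 29166). The libraries were almost equal, and the SD of 14.7 CPM lay under the 60.8 CPM that counting error alone gives, so an SD over 2 libraries is no measure of the spread between pools here. Mir126a ranked 7 in both libraries. Reads placed in several positions are counted for no gene, so genes with near-identical copies may rank too low beside the members.

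Mir221 was far lower. It had 1519 reads in replicate 1 and 1779 in replicate 2, or 196 CPM (95% interval 187 to 207) and 223 CPM (213 to 233), with a mean of 209.6 ± 18.7 CPM (SD, n = 2). Its rank was 164 in replicate 1 and 147 in replicate 2. Its level is 549 times the level that 3 reads give, so the gene was well above the limit of detection.

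Mir222 was the lowest of the members. It had 802 reads in replicate 1 and 996 in replicate 2, or 104 CPM (96.6 to 111) and 125 CPM (117 to 133), with a mean of 114.2 ± 14.9 CPM (SD, n = 2). Its rank was 199 in replicate 1 and 178 in replicate 2. The intervals of the members, which cover counting error only, do not overlap within either library. The order Mir126a, Mir221, Mir222 was the same in both.

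**Figure D1:**
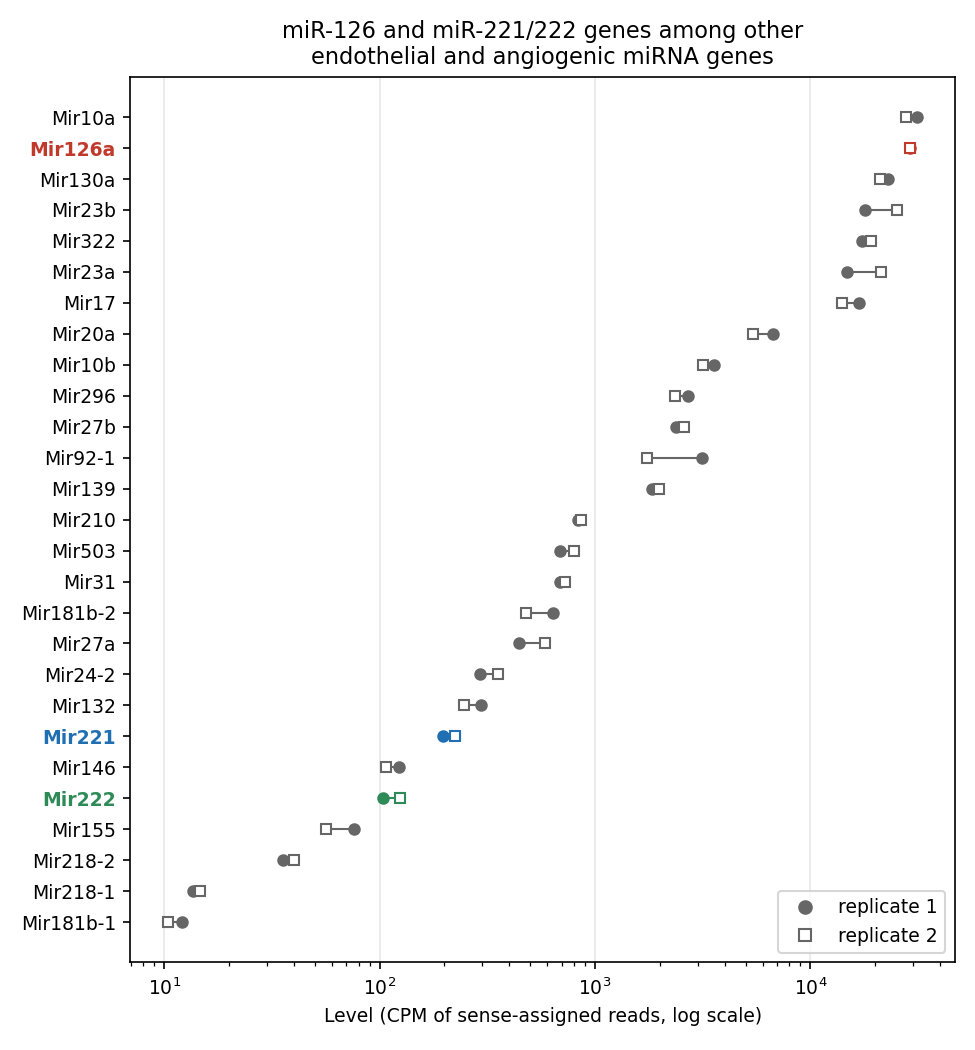
Level of Mir126a, Mir221, Mir222 and 24 other endothelial and angiogenic miRNA genes (CPM of sense-assigned reads, log axis), with replicate 1 as filled circles and replicate 2 as open squares joined by a line. Mir126a lies near the top at 29028 and 29049 CPM, while Mir221 and Mir222 lie between 104 and 223 CPM.

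The gap between Mir126a and the pair was much larger than the difference between the 2 libraries. Mir126a had 96.7 reads for each read of Mir221 and Mir222 together in replicate 1 and 83.6 in replicate 2, a mean ratio of 90.2 ± 9.31 (SD, n = 2). Of the reads of all 3 genes, 98.98% and 98.82% belonged to Mir126a. Small RNA reads span a whole mature product, so reads per gene were compared, and per base of the hairpin the ratio was 109.5. The part of sequence-dependent capture in library making in the gap between genes was not tested.

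Mir221 and Mir222 stood in nearly the same proportion in both libraries. There were 1.89 reads of Mir221 for each read of Mir222 in replicate 1 (exact 95% interval 1.74 to 2.07) and 1.79 in replicate 2 (1.65 to 1.93). Per base of the hairpin the mean ratio was 1.53 in place of 1.84. Fisher's exact test (two-sided) of the read counts, adjusted over the 3 pairs of members, gave p = 0.331 for a change of this ratio between libraries. The ratio in replicate 1 was 1.06 times that in replicate 2, with a 95% interval of 0.943 to 1.19 for counting error. Against Mir126a, both genes of the pair took a somewhat larger share in replicate 2. The ratio of Mir126a to Mir221 fell from 148 in replicate 1 to 130 in replicate 2, and the same exact test gave an adjusted p of 0.000508. The ratio of Mir126a to Mir222 fell from 280 to 233, with an adjusted p of 0.000316 by that exact test. These ratios do not depend on how the libraries are scaled, and the test compares 2 libraries without the spread among pools.

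**Figure D2:**
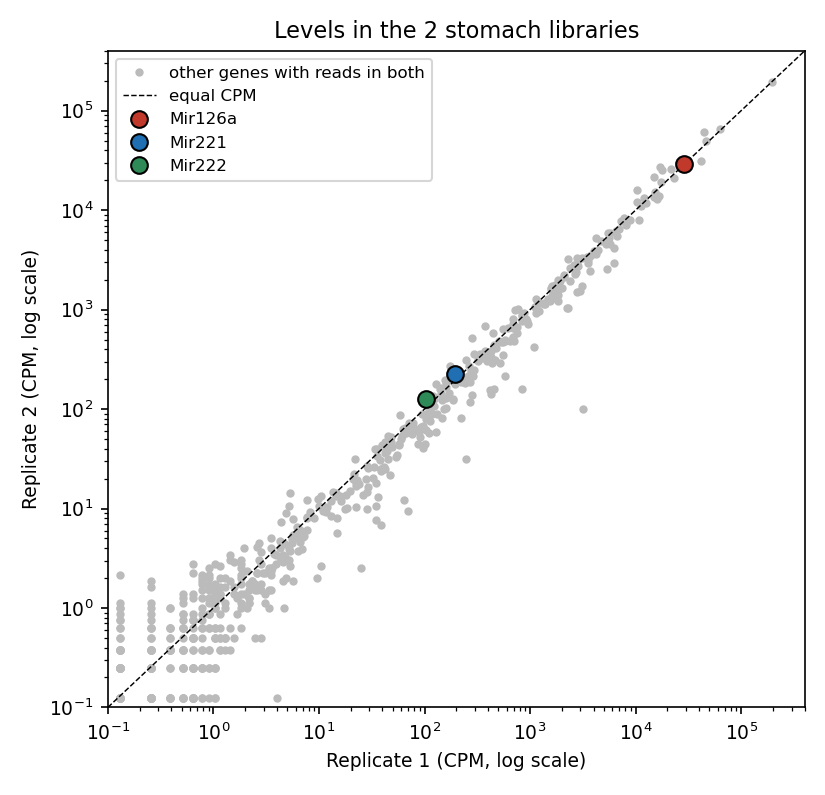
Level of every gene with a sense read in both libraries, replicate 1 on the x axis and replicate 2 on the y axis (CPM, log axes), with the 3 members in colour and equal CPM as a dashed line. Mir126a lies on the line, and Mir221 and Mir222 lie slightly above it, at 223 against 196 CPM and 125 against 104 CPM.

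Neighbouring miRNA genes cut from 1 transcript can still differ widely in level, so the pair was set beside the other neighbours in the tissue. Pairs were next neighbours on the same strand within 10 kb, each gene at 10 CPM or more in both libraries, and there were 98 of them. Mir221 and Mir222 differed 1.84-fold in mean level, against a median of 5.67-fold over the 98 pairs. Of the others, 15 pairs were closer in level and 39 differed more than 10-fold. The ratio of Mir221 to Mir222 changed 1.06-fold between libraries, against a median of 1.18-fold, and 17 pairs changed less. Pairs were set by distance and strand alone, and need not come from 1 transcript. Reads placed in several positions are counted for no gene, so pairs holding a gene with near-identical copies may look further apart. How far this widened the other pairs was not tested. Pairs of a longer cluster share genes, and this is a description without a test.

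**Figure D3:**
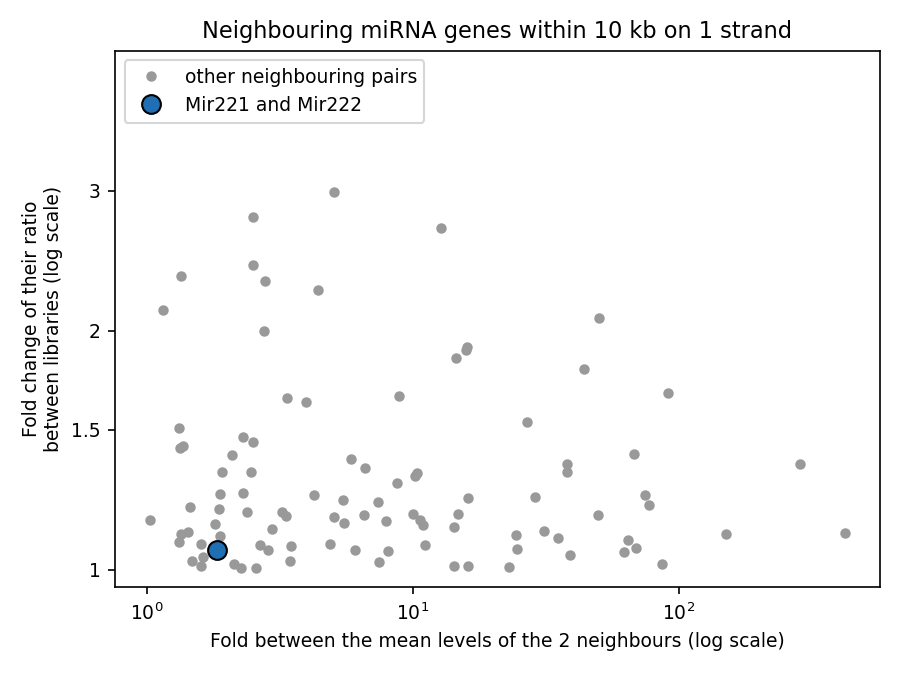
Fold between the mean levels of 98 pairs of neighbouring miRNA genes (x axis, log scale) against the fold by which their ratio changed between libraries (y axis, log scale), with Mir221 and Mir222 in blue. The pair lies at 1.84-fold and 1.06-fold, in the lower left of the cloud.

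The 2 libraries were then compared over the 289 genes whose mean reached 10 CPM, with an exact binomial test of the read counts, Benjamini-Hochberg adjustment and a minimum of 2-fold after scaling by trimmed mean of M values (TMM). None of the 3 members passed this rule, which 7.96% of the tested genes did. All 3 stood higher in replicate 2 with this scaling. The log2 ratio of replicate 1 over replicate 2 was -0.18 for Mir126a (95% interval -0.19 to -0.17), -0.36 for Mir221 (-0.46 to -0.26) and -0.45 for Mir222 (-0.58 to -0.31). As folds these are 1.14, 1.29 and 1.36.

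With no minimum fold all 3 members passed, as 76.1% of the tested genes did, 37.7% in this direction and 38.4% in the other. The exact test gave an adjusted p of 1.08e-12 for Mir221 and 1.07e-10 for Mir222, and for Mir126a one too small to be represented as a number above 0. Larger absolute log2 ratios were found for 176 tested genes than for Mir126a, for 100 than for Mir221 and for 77 than for Mir222. The members were thus within the common range of differences between these libraries, for which edgeR estimated a biological coefficient of variation of 0.294. Scaling by total sense-assigned reads raised all log2 ratios alike, and their median over the tested genes was then 0.21 in place of 0.02. Mir126a was equal in both libraries with that scaling, at a log2 ratio of -0.00103 and an adjusted p of 0.821 by the exact test, while Mir221 stood at -0.18 and Mir222 at -0.27.

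**Figure D4:**
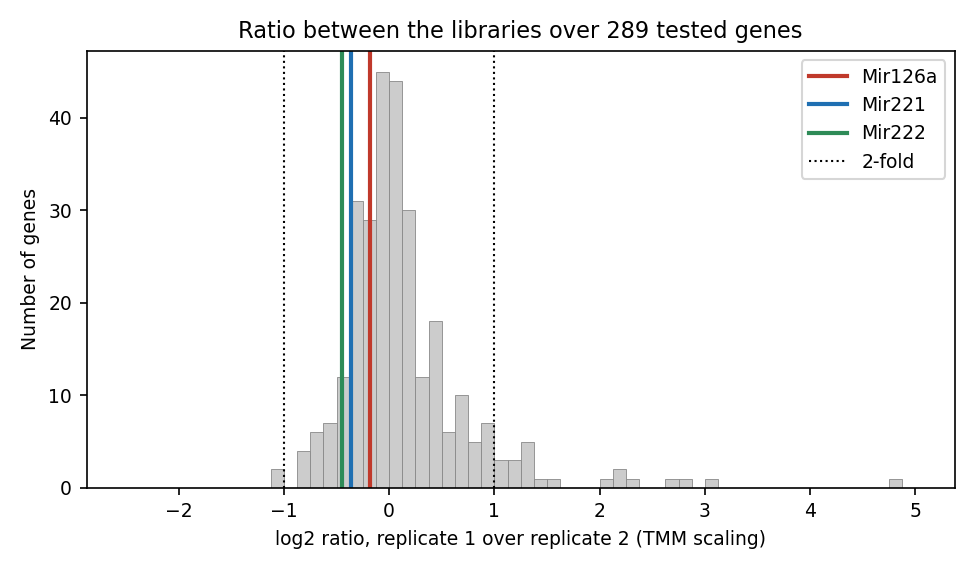
Histogram of the log2 ratio of replicate 1 over replicate 2 (TMM scaling) over 289 genes, with coloured lines at the 3 members and dotted lines at 2-fold. The members lie at -0.18, -0.36 and -0.45, between the dotted lines.

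Other miRNA genes known from endothelium or vessel growth were taken from a list of 28 symbols. Of these, 24 were matched by symbol, and all 24 reached 10 CPM in both libraries. The symbols Mir126b, Mir18a, Mir24-1 and Mir146a found no match, which does not show that these genes were absent. A gene named Mir18, next to Mir17, stood at 2795 ± 91.3 CPM (SD, n = 2) and is left out of the list and its sum. Which cells gave the reads of the list was not tested, and Mir155 is also in the leukocyte list below. Together the 24 matched genes stood at 145725 CPM in replicate 1 and 150136 CPM in replicate 2. Only Mir10a, a gene of the Hox clusters with a role in endothelial inflammation, had a higher mean than Mir126a. Its level was 31379 CPM in replicate 1 and 27915 CPM in replicate 2, so the order of these genes turned between libraries. Mir130a, which represses antiangiogenic homeobox genes, stood at 21971 ± 1285 CPM (SD, n = 2). Mir23b and Mir23a, of paralogous clusters that act in vessel sprouting, stood at 21588 ± 5120 and 18097 ± 4584 CPM. Mir130a was above Mir23b in replicate 1, at 22879 against 17968 CPM, and below it in replicate 2, at 21062 against 25208 CPM. Mir322, the mouse counterpart of human miR-424, stood at 18241 ± 1170 CPM, and Mir17 of the miR-17-92 cluster at 15359 ± 1970 CPM.

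Mir221 was lower than 19 of these 24 genes. The hypoxia-induced gene Mir210 stood at 845 ± 20.6 CPM, above both Mir221 and Mir222. Mir146, which dampens inflammatory signalling, stood at 124 CPM in replicate 1, above Mir222, and at 108 CPM in replicate 2, below it. Mir155, another inflammatory gene, was lower at 65.9 ± 13.8 CPM. In the list, 11 of 24 genes share a 20-base stretch with another hairpin on either strand, Mir23a, Mir23b and Mir146 among them. Reads that matched 2 places may be missing from their levels. The search also counts a hairpin on the opposite strand of the same place, as Mir126b is for Mir126a, which by itself gives a read no other place.

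None of the 24 genes differed 2-fold between libraries by the test that 7.96% of all tested genes passed. With no minimum fold, 13 were higher in replicate 2 and 5 in replicate 1, while 37.7% and 38.4% of all tested genes passed in these directions. Their median log2 ratio was -0.15, against 0.02 for all tested genes and -0.06 for those at a mean of 100 CPM or more. The listed genes were mostly abundant, with 19 of 24 above Mir221, and some are neighbours in 1 cluster. Neither these shares nor these medians were matched for level or tested against each other. Mir503, which neighbours Mir322 and was named after its value was seen, had a log2 ratio of -0.40, close to those of Mir221 and Mir222. Such closeness was not particular to the list, since Mir429 stood at -0.44 and Mir26b at -0.45.

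The genes closest to the members in level over both libraries were found by the larger of the differences in log2(CPM + 1). For Mir126a they were Mir10a, Mir26b and the epithelial gene Mir429. Mir26b stood at 25504 CPM in replicate 1 and 30625 CPM in replicate 2, so it was below Mir126a in one library and above it in the other, and the place of Mir126a among them is not settled. For Mir221 the closest genes were Mir490 at 201 ± 16.7 CPM (SD, n = 2), Mir700 at 200.5 ± 13.9 CPM and Mir187 at 194 ± 10.3 CPM. For Mir222 they were Mir338 at 109.9 ± 5.90 CPM, Mir135b at 127 ± 11.1 CPM and Mir101a at 124.5 ± 1.71 CPM. Mir338 and Mir101a share a 20-base stretch with another hairpin. Mir490, Mir700 and Mir187 were below Mir221 in both libraries, by 0.15 or less on the log2 scale. Mir135b and Mir101a were above Mir222 in both, by 0.25 or less, while Mir338 was above it in replicate 1 and below it in replicate 2. Likeness was measured over 2 libraries only, and these differences were not tested.

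Blood cells and platelets also hold miR-126, miR-221 and miR-222, so markers of other cell types were read beside the members. Erythroid genes together stood at 1240 CPM in replicate 1 and 591 CPM in replicate 2. Most of this was Mir451a, a gene of maturing red cells, with 8396 and 3336 reads, which was called 2.29-fold higher in replicate 1, as 7.27% of the tested genes were called in that direction. Mir144, the neighbour of Mir451a, stood at 139 and 159 CPM and Mir486 at 15.8 and 13.3 CPM. The erythroid genes did not move together. With TMM scaling the log2 ratio of replicate 1 over replicate 2 was 1.20 for Mir451a, -0.38 for Mir144 and 0.07 for Mir486.

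Leukocyte and platelet genes stood at 1355 CPM in replicate 1 and 1247 CPM in replicate 2, with 3 of 4 matched genes at 10 CPM or more and Mir142b at 0 sense reads. Mir223, a myeloid and platelet gene, supplied 1240 and 1166 CPM of this. All reads at Mir142b lay on the opposite strand, where Mir142 is annotated, with 12186 reads in replicate 1 and 8444 in replicate 2. With them the list stood at 2930 and 2305 CPM. The mean level of Mir126a was 24.1 times that of Mir223 and 38.6 times the counted level of Mir451a. Mir451a shares a 20-base stretch with Mir451b. In all, 2 of 3 erythroid and 3 of 4 mesenchymal genes share one with another hairpin on either strand. Where that hairpin lies at another place, reads may be missing from their levels. Mir221 and Mir222 were both lower than Mir223 and Mir451a. The part of blood cells in the levels of the members was not tested.

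Smooth muscle, where miR-221 and miR-222 are also known, gave the highest summed level, at 202084 CPM in replicate 1 and 197398 CPM in replicate 2. Mir143 supplied 195813 ± 1350 CPM (SD, n = 2), 6.74 times the level of Mir126a. Its neighbour Mir145a stood at 5317 CPM in replicate 1 and 2540 CPM in replicate 2, and Mir145b had 1 read in all. Mesenchymal genes stood at 9313 and 7559 CPM, with Mir214 at 6647 ± 336 CPM and Mir199b at 2300 CPM in replicate 1 and 1040 CPM in replicate 2. With TMM scaling the test called no gene of the smooth muscle, epithelial or mesenchymal lists, and 7.96% of all tested genes. These lists held 2, 5 and 4 tested genes, too few for the absence of calls to say much. Mir145a and Mir199b were called higher in replicate 1 with total-read scaling, which called 29 of the 289 tested genes in either direction. Mir199b was also called with TMM factors over all genes, which called 23 of 289. The part of these cells in the levels of Mir221 and Mir222 was not tested.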

How the data were processed

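The deposited tables hold raw read counts per gene for 2 libraries. The genome was mm10 and the annotation GENCODE M4, per the file headers, while the aligner and the counter are not stated in the sources used here. The sense column was the strand column with the larger total. Summary totals were left out. Symbols and coordinates came from GENCODE M21 of GRCm38, with 1894 of 1973 identifiers matched, and sequences from RefSeq, with an entry for 637 of the 751 genes with a read.

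Levels are CPM of sense-assigned reads. Libraries were compared by a two-sided exact binomial test on TMM effective sizes (edgeR 4.0.16, R 4.3.3), with 0.5 added to each count for the ratio. The rule was an adjusted p under 0.05 and at least 2-fold. A check on simulated counts held counting error only and used total reads in place of TMM sizes. It therefore does not bear on the spread between real libraries. With 1 library on each side the test covers counting error only, and nothing in it measures the spread among animals. DESeq2 1.42.0 gave alternative size factors, and RNAfold 2.7.2 folding energies. Other steps used Python 3.11.15 and scipy 1.17.1.

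Named genes were the members, genes sharing their seeds, the 3 genes nearest in level to each, and the highest or differing genes of 6 lists. Mir503, Mir210, Mir155, Mir146, Mir375 and Mir18 were added after their values were seen. The members and lists were chosen with earlier results of these data known.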

Additional observations from a re-analysis of the deposited data

Results flagged for a closer look

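Reads on the strand opposite to Mir126a lay above the 3 reads taken as the limit of a count of 0, with 24 reads in replicate 1 and 58 in replicate 2. Mir126b is annotated there, at chr2:26591363-26591420 on the minus strand, wholly within Mir126a. Its mature sequences (RefSeq, GRCm38.p6, seed in capitals) are shown because 1 of them is the near complement of miR-126a-3p.
miR-126b-5p: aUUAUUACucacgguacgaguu
miR-126b-3p: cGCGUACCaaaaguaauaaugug
Of the 22 bases of miR-126a-3p, 19 are complementary to miR-126b-5p in 1 stretch. The opposite reads were 0.0107% of all reads at Mir126a in replicate 1 (0.00685% to 0.0159%) and 0.0250% in replicate 2 (0.0190% to 0.0323%), with exact Clopper-Pearson 95% intervals. Over the other 99 of the 100 most abundant genes the pooled shares were 0.00243% and 0.00220%. Of these, 87 had no opposite read in replicate 1 and 85 in replicate 2, while 4 and 3 had a higher share than Mir126a. The share at Mir126a was 2.34 times higher in replicate 2, with p = 0.000348 by a two-sided Fisher's exact test chosen after the counts were seen. Mir221 and Mir222 had 0 opposite reads in both libraries.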

How the results depend on the processing

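The order of the 3 members and the direction of their ratios between libraries held under every alternative run, although Mir126a was near equality with total-read scaling. The level of Mir126a was 28148 CPM with the count that ignores strand, 29097 with TMM and 29104 with DESeq2 size factors. With all reads as the denominator the levels were 14396, 104.0 and 56.7 CPM for Mir126a, Mir221 and Mir222, and without Mir143 they were 36110, 261 and 142 CPM. The rank of Mir221 ranged from 147 to 164 with a library left out. Per hairpin base the ratio of Mir126a to the pair was 109.5 and that of Mir221 to Mir222 was 1.53. With no minimum fold the members passed the test at log2 ratios of -0.18, -0.36 and -0.45. The number of genes that differed was 23, against 49 from a mean of 1 CPM, 55 with no filter, 12 from 100 CPM, 220 with no minimum fold and 58 at 1.5-fold. TMM factors over all genes, added after seeing the data, gave 23 and log2 ratios of -0.14, -0.32 and -0.41. Counting both strands, the summed levels were 143373 CPM for the endothelial and angiogenic list, 193572 for smooth muscle, 49413 for epithelium and 2536 for leukocytes and platelets. The last was 1301 CPM on the sense strand. The ratio between libraries has no value with a library left out. No paired analysis was possible because there is 1 group.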
